A study of Rattus norvegicus with 4 samples.

Results

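The genes of the proteasome were followed in rat embryonic stem cells (ESCs) that carry or lack a functional Thop1 gene. The members were taken by symbol: a protein-coding gene whose name begins with Psma, Psmb, Psmc, Psmd, Psme, Psmf or Psmg followed by a number. This rule gave 50 of the 34773 genes of the count table, and 47 of them were among the 15028 genes with enough counts to be tested. By role they were 8 alpha ring genes, 4 structural beta ring genes, 3 constitutive catalytic beta genes, 3 immunoproteasome beta genes, the thymus form Psmb11, 6 ATPases and 3 other subunits of the regulatory base, 8 lid subunits, 3 base assembly chaperones, 4 activators, 1 inhibitor and 4 core assembly chaperones. Psmc3ip and Psme3ip1 match the symbol rule, but they encode a recombination cofactor and a partner of an activator and are no subunits. The alpha 3 subunit appears under the symbol Psma3l.

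Poly(A) RNA was sequenced from 1 culture of DA-5-3 GFP, the wild-type (WT) control, and from 3 Thop1-KO GFP subclones of it (#1, #2 and #3). DA-5-3 is a rat ESC line that carried the Rex1-GFP pluripotency reporter in every sample, and the methods give culture on feeder cells in 2i/LIF, that is the inhibitors PD0325901 and CHIR99021 with the cytokine LIF. The subclones were picked after Cas9 cutting of Thop1 and puromycin selection, so each is 1 clone, whereas nothing states that the control passed through selection or cloning. The deposited description calls the sequenced cells haploid, and the paper describes DA-5-3 as diploid. With 1 control library, any difference of that culture or library cannot be told apart from the loss of Thop1.

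The 26S proteasome degrades proteins tagged with ubiquitin. Its 20S core is a barrel of alpha and beta rings, with the proteolytic sites on the beta subunits encoded by Psmb5, Psmb6 and Psmb7, and the 19S regulatory particle on its ends holds a base with a ring of ATPases and a lid that removes ubiquitin. Interferon can replace the catalytic subunits by the immunoproteasome forms encoded by Psmb8, Psmb9 and Psmb10, and THOP1, the product of Thop1, is a peptidase that cuts peptides released by the proteasome further. The factor NRF1 (Nfe2l1) is known to raise proteasome gene transcription when proteasome activity is short, through antioxidant response elements.

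Thop1 itself was at 370 CPM (counts scaled to a common library size with edgeR's TMM factors) in DA-5-3 GFP and at 110, 92.5 and 149 CPM in #1, #2 and #3. The total count was 15405499 for DA-5-3 GFP and between 16525074 and 17936544 for the subclones. Pou5f1, a marker of pluripotent cells, was between 3889 and 4842 CPM, and 0 of the 5 pluripotency genes tested passed the test. Of these, 4 had a negative log2 fold change. Sox2 was at 305 CPM in DA-5-3 GFP and at 594, 370 and 668 CPM in the subclones (0.83, adjusted p = 0.157, edgeR). Zfp42, also listed, was not found by that symbol. The summed CPM of 7 fibroblast genes, which feeder cells could give, was 199 in DA-5-3 GFP and 323, 642 and 414 in #1, #2 and #3. Most of each sum was Col1a1, at 190 CPM in DA-5-3 GFP and 304, 555 and 374 CPM in the subclones. Dcn, Lum and Thy1 were at 0 in every library, and 0 of 4 genes tested were called. In each of these 4 (Col1a1, Col3a1, Pdgfra and Pdgfrb) the control was the lowest library, beside 38.1% of all genes. Their log2 fold changes ran from 1.10 to 2.79. Col3a1 had the largest, at 6.39 CPM in DA-5-3 GFP and 16.2, 80.0 and 36.9 CPM in the subclones (adjusted p = 0.0863, edgeR). Pdgfra reached at most 0.954 CPM. Among 4 leukocyte genes, Ptprc was at 0 in every library, Cd74 and Tyrobp stayed under 1 CPM and Laptm5 was between 20.1 and 32.7 CPM.

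The promoters of 44 of the 50 genes were found in RefSeq (build GRCr8), and those of Psma3l, Psma7, Psmb11, Psmd6, Psmd12 and Psmd14 were not. Each covers 250 bases before and 50 bases after the annotated start. Both strands were searched for 5 motifs, namely the ETS core CCGGAAG, the GC box GGGCGG, the CCAAT box CCAAT, the antioxidant response element core TGACNNNGC and the interferon-type site TTCNNNGAA; matches of different motifs may overlap. The ETS core lay in 17 of the 44 proteasome promoters (38.6%), beside 8.75% of 33469 rat promoters of the same length. The GC box was found in 31 (70.5%, beside 33.1%) and the CCAAT box in 22 (50%, beside 37.5%). The antioxidant response element core was in 7 (15.9%, beside 12.1%) and TTCNNNGAA in 4 (9.09%, beside 8.87%), shares near those of all promoters. The median GC content was 56.0% in the proteasome promoters and 51.7% in all promoters.

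Stretches of 6 promoters are shown, each running from 120 bases before the start to 29 bases after it, on the gene's strand and 5′ to 3′. The first 4 belong to genes that the test below called lower and that hold the ETS core. The other 2 belong to catalytic genes that hold the antioxidant response element core and were not called by it. Genes that were not called hold the ETS core too, among them Psmb4, Psmd4 and Psmd7. The GC box lay in 5 of the 5 called promoters found in RefSeq. A link between a motif and the calls was not tested. Capitals mark these cores on either strand. They lie at chr6:78514227-78514376 on the plus strand for Psma6, chr3:42827441-42827590 on the minus strand for Psmb7, chr15:21022194-21022343 on the plus strand for Psmc6, chr11:48755011-48755160 on the minus strand for Psmg1, chr15:32047350-32047499 on the minus strand for Psmb5 and chr10:55737768-55737917 on the plus strand for Psmb6.
Psma6: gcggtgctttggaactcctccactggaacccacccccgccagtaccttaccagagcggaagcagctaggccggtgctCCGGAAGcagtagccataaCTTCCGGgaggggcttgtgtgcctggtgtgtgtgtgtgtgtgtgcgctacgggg
Psmb7: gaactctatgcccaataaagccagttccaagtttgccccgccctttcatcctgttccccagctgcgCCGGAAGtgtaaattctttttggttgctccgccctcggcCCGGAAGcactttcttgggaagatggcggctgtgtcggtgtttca
Psmc6: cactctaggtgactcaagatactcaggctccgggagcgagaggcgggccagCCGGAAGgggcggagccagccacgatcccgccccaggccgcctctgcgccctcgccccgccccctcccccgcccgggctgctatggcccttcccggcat
Psmg1: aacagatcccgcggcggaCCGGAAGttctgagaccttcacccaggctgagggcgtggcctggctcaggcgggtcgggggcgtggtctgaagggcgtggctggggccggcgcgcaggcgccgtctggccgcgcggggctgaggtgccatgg
Psmb5: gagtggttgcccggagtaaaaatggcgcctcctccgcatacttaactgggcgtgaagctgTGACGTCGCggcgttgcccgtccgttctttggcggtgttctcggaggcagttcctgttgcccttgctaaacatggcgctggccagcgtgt
Psmb6: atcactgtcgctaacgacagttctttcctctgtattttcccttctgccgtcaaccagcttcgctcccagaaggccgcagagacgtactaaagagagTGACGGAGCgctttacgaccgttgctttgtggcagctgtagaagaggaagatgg
Psma6 and Psmb7 each hold the ETS core at 2 places, centred 40 and 21 bases (Psma6) and 51 and 12 bases (Psmb7) before the start. Psmg4, the remaining gene called lower with a promoter in RefSeq, holds neither core.

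The level of the 26S subunits was high and uneven in every library. In the deposited FPKM values, which are set per length, the 31 subunits of the core and the regulatory particle with broad expression ran in DA-5-3 GFP from 31.3 for Psmc6 to 1004 for Psmb4, with a median of 250. The same genes stood at both ends in #1 (12.99 and 903 FPKM), #2 (16.2 and 836 FPKM) and #3 (16.2 and 847 FPKM). Psmc6, an ATPase of the base, was far below the 5 other ATPases, whose FPKM in DA-5-3 GFP lay between 207 (Psmc1) and 282 (Psmc5). Psma3l and Psma4 followed Psmc6 at the low end with 60.0 and 53.5 FPKM in DA-5-3 GFP, and their annotated exon lengths of 3559 and 3909 bases were the longest of the core. The median FPKM of the 14 core genes over that of the 17 regulatory genes was 1.72 in DA-5-3 GFP and 1.82, 1.72 and 1.77 in #1, #2 and #3, so this ratio moved little between the libraries.

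In the comparison of the genotypes, transcripts of the 26S subunits made up a smaller part of the RNA in all 3 subclones. Their summed CPM was 11832.5 in DA-5-3 GFP and 8690.8 in #1, 9427.3 in #2 and 8200.3 in #3. The subclones thus averaged 8773 ± 618 CPM (SD, n = 3), which is 74.1% of the control. The part was 70.7% for the core genes and 77.9% for the regulatory genes. These sums were not corrected for length, and the median exon length was 965.5 bases for the core and 1584 for the regulatory genes. Over 3781 genes at least as abundant as the lowest 26S subunit, Spearman's rho between exon length and log2 fold change was 0.41. It was -0.14 over the 31 subunits. Whether the core and the regulatory genes differ was not tested. The 3 subclone values of the 26S sum lay below the control, the most extreme order that 1 library against 3 can give. An exact permutation test cannot go below p = 0.25 in this design. In bulk RNA, fewer cells of a type and less RNA per cell cannot be told apart. Subclone #2, with the highest sum among the subclones, also had the highest summed level of fibroblast genes (642 CPM, of which 555 were Col1a1). The content of fibroblasts was not measured, and their part in the result was not tested.

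**Figure D1:**
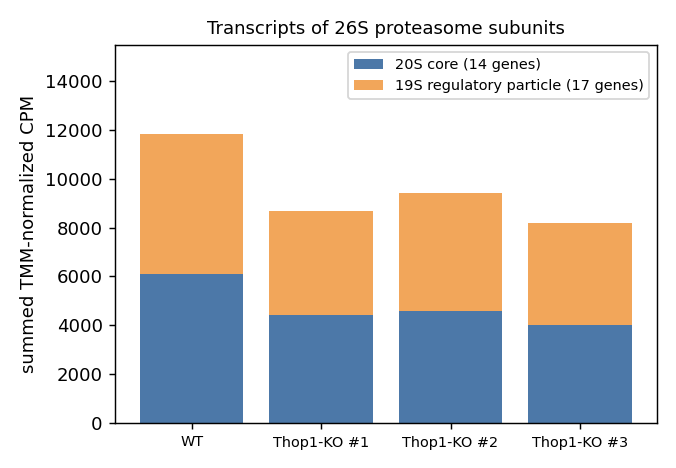
Summed TMM-normalized CPM of 14 core genes (blue) and 17 regulatory particle genes (orange), 1 bar per library. The control bar reaches 11832.5 CPM and the subclone bars end between 8200.3 and 9427.3 CPM.

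Gene by gene, 6 of the 47 genes tested passed an adjusted p of 0.05 in edgeR's quasi-likelihood test as lower in Thop1-KO, beside 5.17% of all 15028 genes, and 0 passed as higher, beside 8.62% of all genes. The 6 genes are 12.8% of those tested. At an unadjusted p under 0.05, 21 of the 47 (44.7%) were lower, beside 14.9% of all genes, and 0 were higher, beside 19.1%. By DESeq2, 9 genes were called lower, beside 7.29% of 13973 genes, and 0 higher, beside 14.2%. The control library was higher than each subclone for 37 of the 47 genes (78.7%), beside 37.6% of all genes, and lower than each for 1 gene, beside 38.1% of all genes. The fitted log2 fold change was negative in 44 genes and positive in 3, namely Psmb9, Psmd10 and Psmd3. Its median over the 47 genes was -0.51, beside 0.06 over all genes tested. The number of calls depended on single libraries: 1 gene (Psmb7) was called lower without #1, beside 4.79% of all genes, 24 without #2, beside 16.8%, and 0 without #3, beside 0.698%, so the share of all genes called moved as well. It was also 1 with libraries scaled by size only, beside 4.08% of all genes, and 0 by limma on log2(FPKM + 1), beside 4.28%. These genes share 1 control library, so their common direction does not stand for 44 separate observations.

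**Figure D2:**
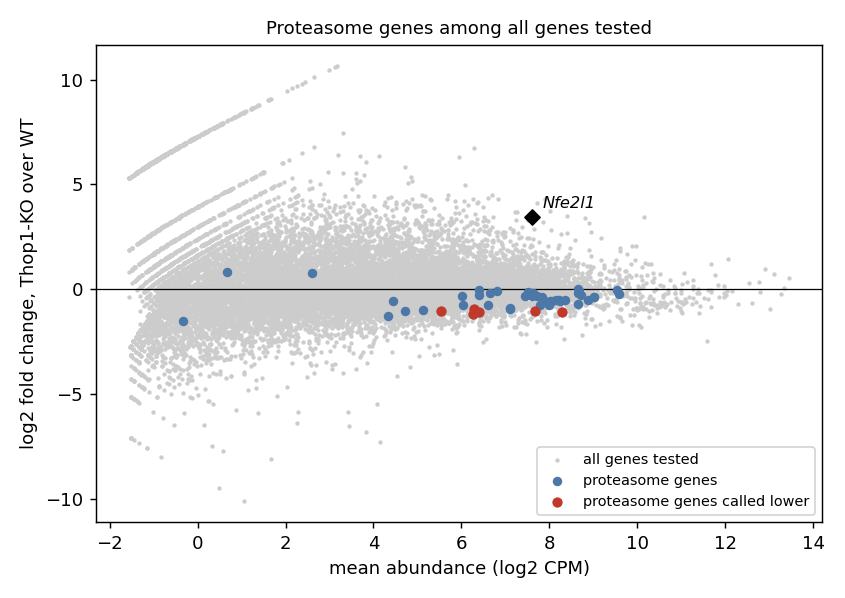
Log2 fold change of Thop1-KO over DA-5-3 GFP against mean abundance (log2 CPM), 1 point per gene, with all 15028 genes tested in grey, proteasome genes in blue and the 6 called lower in red. Most proteasome genes lie just below 0, around their median of -0.51, and Nfe2l1 lies at 3.46.

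The 6 genes that fell come from the alpha ring, the catalytic beta subunits, the base, the lid and the core assembly chaperones. The deposited annotation, whose build is not given in the sources used here, places Psma6 (ENSRNOG00000007114) on chromosome 6 from 76174452 to 76205426, plus strand, Psmb7 (ENSRNOG00000011732) on chromosome 3 from 22871105 to 22952063, minus strand, Psmc6 (ENSRNOG00000007203) on chromosome 15 from 19667453 to 19688914, plus strand. It places Psmd14 (ENSRNOG00000061129) on chromosome 3 from 47578384 to 47673338, plus strand, Psmg1 (ENSRNOG00000001643) on chromosome 11 from 36327800 to 36337256, minus strand, and Psmg4 (ENSRNOG00000039265) on chromosome 17 from 31404578 to 31411957, minus strand. Psma6, a subunit of the alpha ring that opens and closes the core, was at 334 CPM in DA-5-3 GFP and at 157, 193 and 134 CPM in #1, #2 and #3. Psmb7, the subunit with trypsin-like activity, was at 519 CPM against 257, 261 and 215 CPM. In both genes the highest subclone was well below the control, which was the highest library in 37.6% of all genes. The log2 fold change was -1.05 (SE 0.26, adjusted p = 0.0435, edgeR) for Psma6 and -1.09 (SE 0.22, adjusted p = 0.0270, edgeR) for Psmb7. Psmb7 overlaps Nek6 on the opposite strand, which had 162 counts over the 4 libraries beside 20496 for Psmb7, and since the library kit does not mark strand, reads in the overlap cannot be assigned with certainty.

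Psmc6 and Psmd14 were the regulatory particle genes called. Psmc6 was at 75.4 CPM in DA-5-3 GFP and at 31.1, 39.1 and 39.6 CPM in #1, #2 and #3, a log2 fold change of -1.04 (SE 0.27, adjusted p = 0.0475, edgeR). Psmd14, the lid enzyme that cleaves ubiquitin chains from substrates, was at 141 CPM against 58.7, 77.2 and 63.3 CPM, a log2 fold change of -1.08 (SE 0.25, adjusted p = 0.0381, edgeR). The control was above all 3 subclones in either gene, beside 37.6% of all genes. The subclones were on average at 48.6% and 47.2% of the control.

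The core assembly chaperones, which help to build the alpha ring, held the other calls. Psmg1 was at 132 CPM in DA-5-3 GFP and at 51.7, 70.8 and 52.0 CPM in #1, #2 and #3, a log2 fold change of -1.18 (SE 0.27, adjusted p = 0.0371, edgeR). Psmg4 was at 122 CPM against 64.99, 58.6 and 67.9 CPM, a log2 fold change of -0.93 (SE 0.23, adjusted p = 0.0460, edgeR). Psmg2, the partner of Psmg1, was at 56.1 CPM against 26.4, 31.7 and 25.5 CPM and missed the threshold (log2 fold change -1.01, adjusted p = 0.0529, edgeR). Psmg3 had the smallest difference of the 4 chaperones (log2 fold change -0.33, adjusted p = 0.408, edgeR). In all 4 the control was the highest library, beside 37.6% of all genes.

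**Figure D3:**
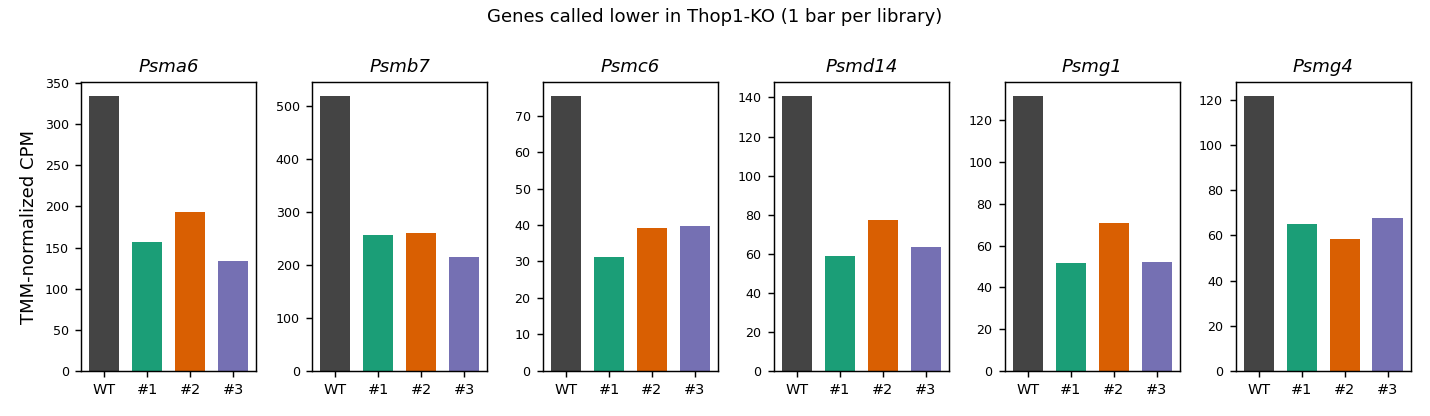
TMM-normalized CPM of the 6 genes called lower in Thop1-KO, 1 panel per gene and 1 bar per library, with axes that start at 0. In each panel the control bar stands clear of the subclone bars, whose mean is between 44.2% and 52.5% of it.

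All 6 calls have an adjusted p between 0.0270 and 0.0475, close to the threshold. With each library corrected for gene length by a loess curve, 7 genes were called, beside 6.40% of all genes, of which Psmb7, Psmc6 and Psmd14 were shared with the main test, Psma6, Psmg1 and Psmg4 were lost, and Psma3l, Psma4, Psme3 and Psme4 were gained.

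Among the other core genes, log2 fold changes of the alpha ring lay between -1.53 for Psma8, the testis form with 5 to 20 counts (adjusted p = 0.258, edgeR), and -0.13 for Psma2 (adjusted p = 0.759, edgeR). Psma2 was inside the range of the subclones, at 196 CPM against 161, 220 and 156 CPM. The 4 structural beta genes had log2 fold changes from -0.51 (Psmb3, adjusted p = 0.135, edgeR) to -0.22 (Psmb4, adjusted p = 0.460, edgeR). In each of them the control was above all 3 subclones, beside 37.6% of all genes. The length correction turned Psma2 to 0.092 and Psmb4 to 0.026 on the log2 scale.

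The 3 constitutive catalytic subunits differed in how far they stood from the control. Psmb5, with chymotrypsin-like activity, was at 485 CPM in DA-5-3 GFP and at 417, 404 and 388 CPM in #1, #2 and #3, and Psmb6, with caspase-like activity, was at 568 CPM against 345, 370 and 334 CPM. The control was the highest library in both, beside 37.6% of all genes. Neither passed the test (log2 fold change -0.27, adjusted p = 0.389 for Psmb5 and -0.70, adjusted p = 0.0657 for Psmb6, edgeR). Psmb7, given above, passed it. Whether the 3 changes differ from each other was not tested.

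In the regulatory particle, all 6 ATPases of the base had the control above the 3 subclones, beside 37.6% of all genes. Of these 6, 5 were lower at an unadjusted p under 0.05, beside 14.9% of all genes. Psmc6 had the largest log2 fold change of the 6 and Psmc3 the smallest (-0.18, adjusted p = 0.583, edgeR). Of the 3 other base subunits, Psmd4, a ubiquitin receptor, had the largest (-0.57, adjusted p = 0.123, edgeR) and Psmd2 the smallest, at 762 CPM in DA-5-3 GFP and 758, 758 and 690 CPM in the subclones (-0.05, 95% interval -0.53 to 0.43). In the lid the control was above all 3 subclones in 4 of 8 genes (50%), beside 37.6% of all genes. It was inside their range in the other 4 (Psmd3, Psmd6, Psmd7 and Psmd8). Psmd3 was at 402 CPM against 414, 424 and 378 CPM, a log2 fold change of 0.01 (95% interval -0.49 to 0.52) that was -0.084 with upper quartile scaling and -0.21 with the length correction.

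The fitted fold changes of abundant subunits were nearer to 0 than those of scarce ones. Among the 31 subunits of the 26S particle, the 10 with the highest mean CPM had a median log2 fold change of -0.24, and the 10 with the lowest had one of -0.62. Spearman's rho between abundance and log2 fold change was 0.41 over the 31 genes, beside -0.07 over 3781 genes at least as abundant as the lowest of them. Of the 3781 genes, 1758 had negative and 2023 positive fold changes. The signed rho therefore cannot tell whether abundant genes among them were nearer to 0. All these values rest on the same 4 libraries, and abundance and fold change come from the same counts.

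**Figure D4:**
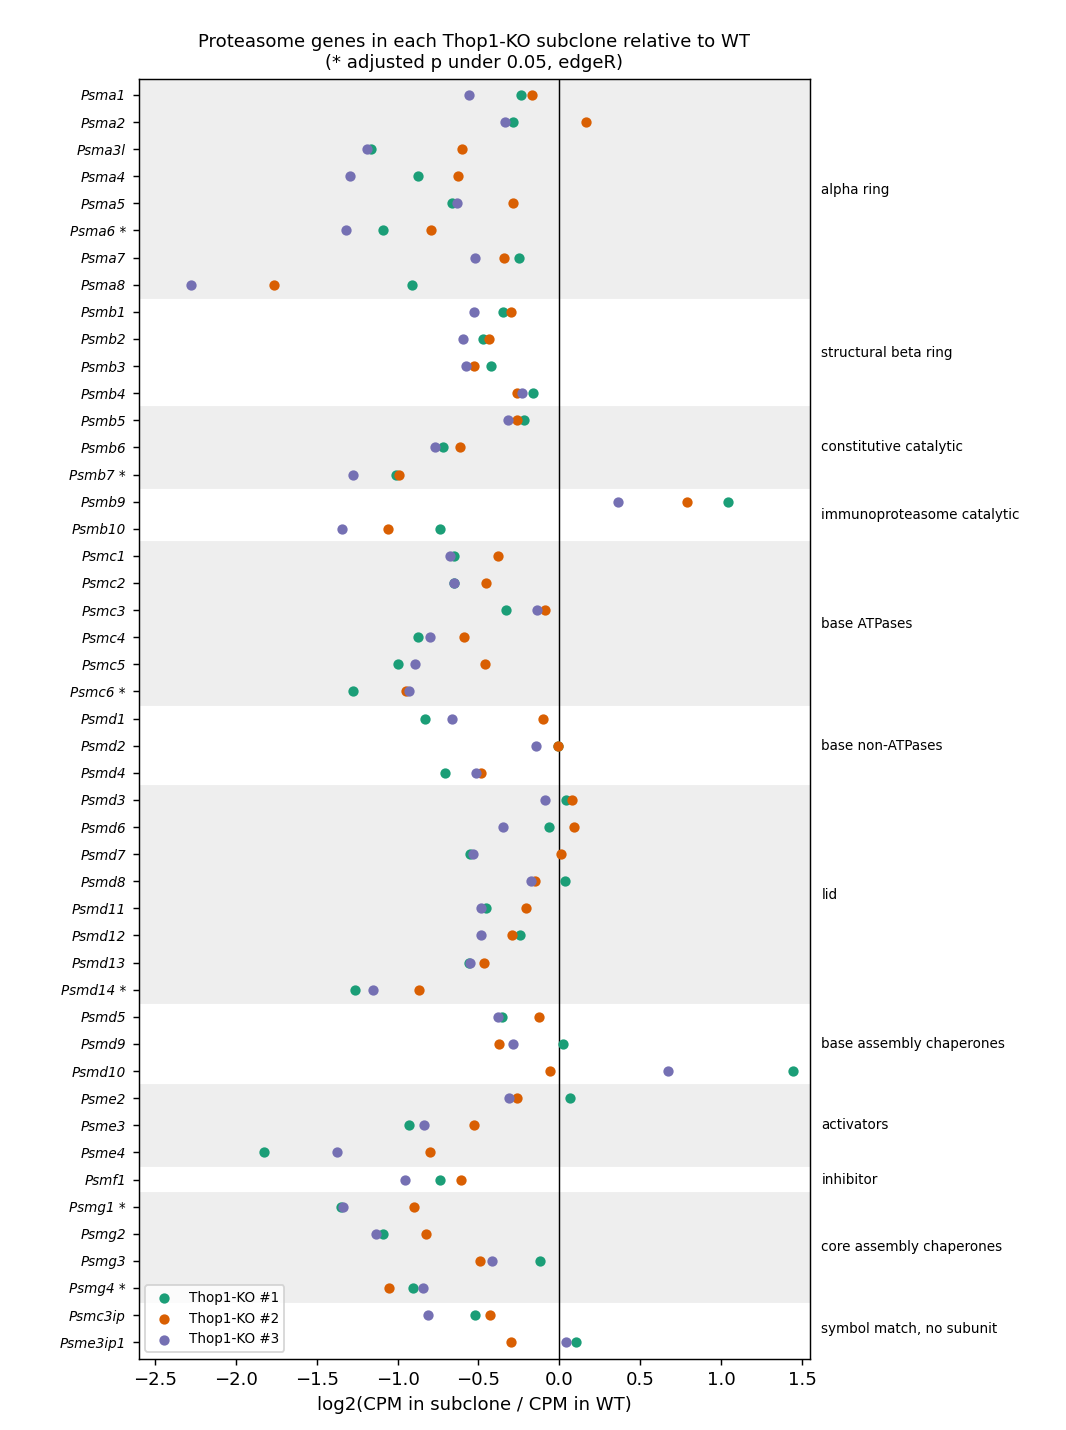
Log2 ratio of each subclone to DA-5-3 GFP in TMM-normalized CPM for the 47 genes tested, 1 point per subclone, grouped by role, with an asterisk at the 6 genes called. Nearly all points lie left of 0, those of Psmb9 lie right of it, and the points of #2 are often the rightmost of the 3.

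The subclones were not alike in these genes. Over the 31 subunits of the 26S particle, the median log2 ratio to DA-5-3 GFP was -0.55 in #1, -0.34 in #2 and -0.56 in #3. Subclone #2 had the highest CPM of the 3 in 23 of the 31 genes and #3 the lowest in 20. Over 3781 genes at least as abundant as the lowest of them, #2 was the highest in 32.1% and #3 the lowest in 25.3%. The median coefficient of variation among subclones was 10.4% over the 31 subunits, beside 14.4% over those 3781 genes, and 10 of the 31 subunits exceeded the latter value. The 2 sets were not matched in level: the median in DA-5-3 GFP was 250 FPKM for the subunits and 45.5 FPKM for the 3781 genes. Psmd1, a scaffold of the base, varied most, at 235, 390 and 264 CPM in #1, #2 and #3, against 418 CPM in DA-5-3 GFP. Psmb5 varied least, with a coefficient of variation of 3.5%.

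Of the immunoproteasome genes, Psmb8 was at the floor of the counts, Psmb9 was low and Psmb10 was well detected, between 16.4 and 42.1 FPKM, and 0 of the 2 tested were called. Psmb8 had 3 counts in DA-5-3 GFP and 1, 0 and 0 in the subclones, at or below a floor of 3 counts per library, and was not tested. Psmb9 was at 3.90 CPM in DA-5-3 GFP and at 8.05, 6.73 and 5.01 CPM in #1, #2 and #3, and Psmb10 was at 42.5 CPM against 25.5, 20.4 and 16.8 CPM. Psmb9 is the 1 gene of the 47 in which the control lay below all 3 subclones, beside 38.1% of all genes. In Psmb10 the control lay above them, beside 37.6% of all genes. Neither passed the test (log2 fold change 0.76, SE 0.46, adjusted p = 0.283 for Psmb9 and -1.02, SE 0.32, adjusted p = 0.0776 for Psmb10, edgeR). Psmb9 and Psmb8 lie 11768 bases apart on chromosome 20 of the deposited annotation.

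Set against the constitutive subunit that each replaces, the immunoproteasome forms were a minor part in every library. Psmb9 was 0.323% of the summed FPKM of Psmb9 and Psmb6 in DA-5-3 GFP and 1.09%, 0.850% and 0.702% in #1, #2 and #3. Psmb10 was 12.2% of the sum with Psmb7 in DA-5-3 GFP and 14.4%, 11.7% and 11.7% in the subclones, while Psmb8 was at most 0.0176% of the sum with Psmb5. For the 3 pairs together the share was 2.67% in DA-5-3 GFP and 2.71%, 2.15% and 1.90% in the subclones, a mean of 2.25% ± 0.415 (SD, n = 3). The control lay inside the range of the subclones (difference -0.413 percentage points, two-sided exact permutation test, p = 0.75). For the pair of Psmb9 and Psmb6 the control was below all 3 subclones, at the smallest p the design allows (two-sided exact permutation test, p = 0.25).

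**Figure D5:**
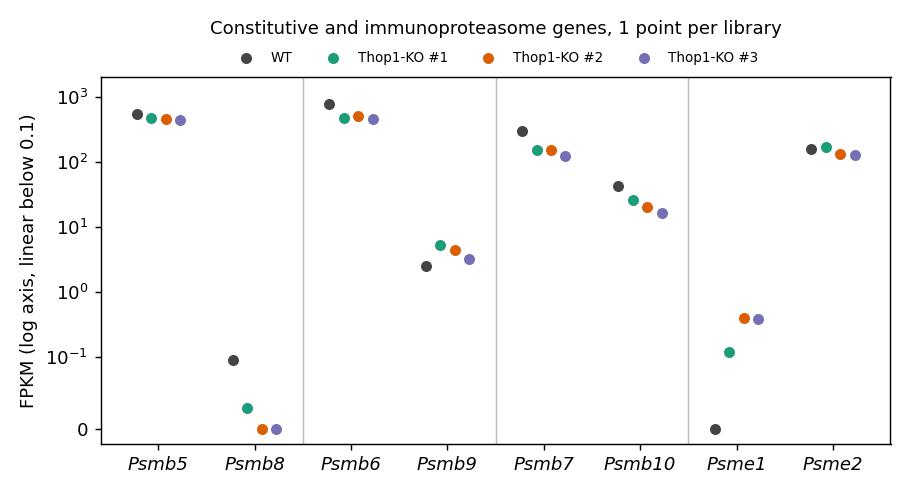
FPKM of the constitutive catalytic genes beside the immunoproteasome genes that replace them, and of the activator genes Psme1 and Psme2, 1 point per library, on a log axis that is linear below 0.1. Psmb8 and Psme1 stay under 1 FPKM, Psmb9 is between 2.53 and 5.26 FPKM, and Psmb5, Psmb6 and Psmb7 exceed 100 FPKM in every library.

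Among the activators, Psme1 and Psme2, whose products form a joint ring on the core and are known to be induced by interferon, stood far apart. Psme1 had 0 counts in DA-5-3 GFP and 2, 7 and 7 in the subclones, while Psme2, 6610 bases away on chromosome 15, was at 213 CPM in DA-5-3 GFP and at 223, 178 and 172 CPM in the subclones (log2 fold change -0.16, adjusted p = 0.682, edgeR). Psme1 overlaps Emc9 on the opposite strand and has a close copy, AABR07028009.1, with 10 to 16 counts. How reads that match several places were counted is not given in the sources used here, so its level is uncertain. Psme4, the activator also called PA200, had the largest log2 fold change of the activators, at 35.5 CPM against 10.02, 20.4 and 13.7 CPM (-1.27, SE 0.41, adjusted p = 0.0829, edgeR). Psme3 was at 140 CPM against 73.3, 96.9 and 78.1 CPM (-0.75, adjusted p = 0.0939, edgeR). The inhibitor gene Psmf1 was at 94.2 CPM against 56.6, 61.9 and 48.6 CPM (-0.76, adjusted p = 0.0906, edgeR). The control was the highest library for Psme3, Psme4 and Psmf1, beside 37.6% of all genes, and none of the 3 passed the test.

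The base assembly chaperones Psmd5, Psmd9 and Psmd10 stood at -0.28, -0.20 and 0.81 on the log2 fold change scale, and their lowest adjusted p was 0.450 in edgeR. Psmd10, also known as gankyrin, was at 0.942 CPM in DA-5-3 GFP and at 2.56, 0.905 and 1.503 CPM in the subclones, so the groups overlapped. Psmb11 had 0 counts in every library. Psmc3ip overlaps Mlx, which had 3080 counts over the 4 libraries beside 1428 for Psmc3ip, and its level is uncertain (log2 fold change -0.58, adjusted p = 0.227, edgeR). Psme3ip1 had a log2 fold change of -0.04, which turned to 0.023 with library size scaling only. Reads shared with copies are also possible for Psmb6, for which a copy (LOC100360846) had 55 to 78 counts, and for Psma3l, for which a pseudogene copy (LOC100361067) had 17 to 31 counts. Psma4, Psmb5, Psmc1, Psmc5, Psmd1, Psme3 and Psme3ip1 each overlap another row of the table with between 0 and 125 counts over the 4 libraries.

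Outside the symbol rule, a list of 38 rows for genes that work with the proteasome was read, of which 37 were found and tested, and 5 were lower and 1 was higher in Thop1-KO at an adjusted p under 0.05, beside 5.17% and 8.62% of all genes. The 5 include Thop1, the targeted gene. Nfe2l1 was the gene that rose, at 22.9 CPM in DA-5-3 GFP and at 256, 234 and 269 CPM in #1, #2 and #3. Every subclone was far above the control, with a log2 fold change of 3.46 (SE 0.29, adjusted p = 0.00678, edgeR). Nfe2l2, a related factor, was at 40.3 CPM against 33.9, 29.9 and 33.9 CPM (log2 fold change -0.31, adjusted p = 0.443, edgeR). The 7 proteasome promoters with the antioxidant response element core were those of Psmb2, Psmb5, Psmb6, Psmd1, Psmd3, Psmd9 and Psme4. That is 15.9% of the promoters found, beside 12.1% of all promoters, and includes 0 of the 5 called ones. The activity of the NRF1 protein was not measured, and a link between Nfe2l1 and these genes was not tested.

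Of the 3 further genes of the particle, the ubiquitin receptor gene Adrm1 had a log2 fold change of -0.67, the lid gene Sem1 of -0.30 and the core maturation gene Pomp of -0.81, and none passed the test (adjusted p from 0.123 to 0.416, edgeR). Of 16 genes for proteins that bind the proteasome or bring substrates to it, Uchl5, a deubiquitinase of the particle, and Zfand5, an activator, were called lower. Uchl5 was at 16.3 CPM against 5.19, 7.41 and 6.34 CPM (log2 fold change -1.37, adjusted p = 0.0498, edgeR). Zfand5 was at 122 CPM against 58.3, 64.9 and 68.2 CPM (log2 fold change -0.94, adjusted p = 0.0456, edgeR). The deubiquitinase gene Usp14 missed the threshold (log2 fold change -0.98, adjusted p = 0.0562, edgeR). The control was the highest library in all 3, beside 37.6% of all genes.

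Of 5 further rows for ubiquitin precursors and activating enzymes, 1 was called lower, and it is a row of Rps27a, which encodes ubiquitin fused to a ribosomal protein. Rps27a stands in 2 rows of the table, under the identifiers ENSRNOG00000034246 and ENSRNOG00000004426. The first was at 1035 CPM against 211, 275 and 189 CPM (log2 fold change -2.20, adjusted p = 0.00705, edgeR) and the other at 948 CPM against 1114, 1053 and 1031 CPM (0.17, adjusted p = 0.570, edgeR). Reads of such copies may be split between the rows, so neither row alone gives the level of the gene.

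Both peptidases listed as acting on proteasome products were lower. Tpp2, tripeptidyl peptidase 2, was at 57.5 CPM against 22.9, 19.8 and 25.8 CPM (log2 fold change -1.33, adjusted p = 0.0280, edgeR), and Thop1, the targeted gene, had a log2 fold change of -1.66 (adjusted p = 0.0187, edgeR). Of the 3 segregase genes Vcp, Ufd1 and Nploc4, 0 were called. Of 6 interferon and antigen presentation genes, 0 were called. B2m, the most abundant of them and the light chain of MHC class I, was at 247 CPM against 146, 150 and 124 CPM (log2 fold change -0.82, adjusted p = 0.0600, edgeR), with the control as the highest library. Irf1 was at 50.5 CPM against 69.8, 77.2 and 66.2 CPM and Tap1 at 1.14 CPM against 9.24, 3.68 and 2.50 CPM, with the control as the lowest library in both. Over all genes, the control was the highest library in 37.6% and the lowest in 38.1%.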

How the data were processed

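Reads were cleaned by the authors with the FASTX toolkit, and they deposited raw read counts per gene and FPKM values. The submitters' processing notes name HISAT2 2.0.5 and featureCounts 1.5.0-p3, and the genome build, the annotation version and the strand setting are not given in the sources used here. The deposited FPKM values equal counts divided by exon length and by 1 factor per library, within 1%.

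Samples were grouped by genotype: 1 WT library and 3 Thop1-KO subclones. Genes were kept by filterByExpr (minimum count 10), scaled by TMM and tested by the quasi-likelihood test of edgeR 4.0.16 in R 4.3.3, with Benjamini-Hochberg adjustment over all 15028 genes, of which those with an adjusted p under 0.05 were called. Since the control has 1 library, the spread within a gene comes from the subclones alone, with 2 residual degrees of freedom. The test draws it towards a prior from all genes (median 4.757 degrees of freedom). Nothing states that libraries were repeated. The p-values thus rest on the spread between these subclones and on that prior, and no spread of the control enters them. The script was tested on simulated counts. Intervals are at 95%. Shares of FPKM were compared by an exact permutation test.

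Alternatives were other scalings, DESeq2 1.42.0, other filters, limma 3.58.1 with a pseudocount of 1 or 0.1 added to FPKM before log2, for genes with an FPKM of 1 or more in a library, a loess length correction (span 0.3), a rule of an unadjusted p under 0.05 with a fold change of 2, and leaving out each subclone. Members named are those called, the catalytic and immunoproteasome genes with Psme1 and Psme2, the tested gene with the largest rise and fall of each role, and those that overlap or copy another gene. The other members appear by ranges. Psmd1 (for its spread), Psmg2, Psme3, Usp14, Nfe2l2, B2m, Irf1, Tap1, Sox2, Col1a1, Col3a1 and Pdgfra were chosen after their values were seen. The members and lists were chosen with earlier results of these data known. Some genes of the list of proteasome partners are not reported here, and its counts leave them out. Promoters came from RefSeq (GRCr8), which may differ from the build of the deposited coordinates. Python 3.11.15 served for the remaining steps, with pandas 2.3.3, numpy 2.4.6 and, for the plots, matplotlib 3.10.9.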

Additional observations from a re-analysis of the deposited data

How the results depend on the processing

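The count of genes called lower was 6 with DESeq2's size factors in edgeR, beside 803 of all 15028 genes. It was also 6 with no filter, beside 799 of 19903, and with at least 10 counts in every library, beside 721 of 11852. Upper quartile scaling gave 8, beside 964 of 15028, DESeq2 9, beside 1019 of 13973, and the length correction 7, beside 962 of 15028. An unadjusted p under 0.05 with a fold change of 2 gave 8, beside 1597 of 15028. The count was 1 with library size only, beside 613 of 15028. It was 0 by limma on log2(FPKM + 1), beside 586 of 13682, and 0 by limma on log2(FPKM + 0.1), beside 339 of 13682. Leaving out each subclone gave from 0 to 24. The count of genes called higher was 0 under each alternative. With all 4 libraries, the genes called higher ran from 664 of 13682 (limma on log2(FPKM + 1)) to 2443 of 15028 (unadjusted p with a fold change of 2). The median log2 fold change of the proteasome genes was -0.61 with upper quartile scaling and between -0.44 and -0.55 under the other alternatives. The median of all genes tested was 0.06, and it moved to -0.09 with the length correction, 0.17 by DESeq2 and 0.19 with no filter. Relative to it, the proteasome median was -0.56 in the main test and from -0.43 (length correction) to -0.68 (DESeq2). The 26S sum in the subclones was 73.5%, 69.4% and 77.9% of the control with DESeq2's size factors, upper quartile scaling and library size only. The control was above all 3 subclones in 33 (library size only) to 42 (upper quartile) proteasome genes. The share of all genes is given here under TMM only (37.6%). The median log2 fold change of all genes was 0.13 with library size only and -0.04 with upper quartile scaling, so all genes moved as well. How much of the range from 33 to 42 is this shift was not tested. The comparisons of the 26S sum and of the control's position were added after seeing the data. The difference in immunoproteasome share ranged from -0.64 to -0.24 percentage points without 1 subclone.

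Single genes with small differences changed sign, namely Psma2 (0.092) and Psmb4 (0.026) with the length correction, Psmd2 (0.018) and Psme3ip1 (0.023) with library size only, and Psmd3 with upper quartile scaling (-0.084) and the length correction (-0.21). Leaving out each subclone gave from -0.019 (without #2) to 0.061 for Psmd3, from -0.197 to 0.015 (without #3) for Psmd6 and from -0.108 to 0.074 (without #2) for Psme3ip1. Of 561 gene values under 12 alternatives, 494 kept their direction and side of the threshold, 27 newly passed it, 31 no longer passed it and 9 changed sign. The cause was not tested. No paired analysis was possible because the control has 1 library.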
